A study of Mus musculus with 20 samples.

Results

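Oxidative phosphorylation is run by 5 protein complexes of the inner mitochondrial membrane. Complexes I and II feed electrons from NADH and succinate into the chain, complex III passes them to cytochrome c, complex IV hands them to oxygen, and complex V, the ATP synthase, uses the proton gradient that complexes I, III and IV build. Most subunits are encoded in the nucleus, and a small set in the mitochondrial DNA. Osteoclasts, the bone-resorbing cells that form from monocyte and macrophage precursors under the cytokine RANKL, are known for their many mitochondria.

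The genes described here are the nuclear-encoded subunits chosen by symbol: Nduf genes with a letter a, b, c, s or v and a number, Uqcr genes, Cyc1, Cox4 to Cox8 genes with a letter a to c, Sdha to Sdhd, and Atp5 genes, without symbols ending in -ps. That rule found 83 of the 50686 genes of the count table, 37 of complex I, 4 of complex II, 9 of complex III, 16 of complex IV and 17 of complex V. The rule goes by name, so it misses Cox4i1 and Ndufab1. It places Ndufa4 under complex I, although the human protein is known as a complex IV subunit. It also takes in Atp5s and Atp5sl, which RefSeq now calls Dmac2l and Dmac2 and which are not core subunits of the ATP synthase.

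RNA was sequenced from RAW264.7 cells, a mouse macrophage line that can form osteoclasts, with 2 libraries in each of 10 groups; the labels also name bone marrow as the source. The cells were given 50 ng/ml RANKL, 500 nM I-BET, or RANKL and I-BET together, each for 4, 14 or 24 hours, or were left untreated at 0 hours. I-BET is an inhibitor of the BET bromodomain proteins, which read acetylated histones. The untreated cells were sampled at 0 hours only, so for any treated group treatment and time in culture cannot be told apart against them. The same holds for 24 against 4 hours within a treatment, since no untreated cells of those hours were sampled. For these courses, words such as "rose with RANKL" name the course and not its cause. All groups share 1 cell line. The labels do not state whether both libraries of a group stem from different cultures, and the p-values reflect only how far these libraries differ, which may be technical.

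Library totals were 19051780 to 62313792 counts. The 83 genes took 0.923 to 1.34% of the counts of a library, and in 10 of 10 groups the share was higher in library 2 than in library 1. Libraries with the same number also deviated together over all genes, so counts of calls are given both from the fit without the library number and, in the words "with the library number as a block", from the fit with it. Untreated library 2 stood apart: 5 genes, CT010467.1, Lars2, Gm23935, mt-Rnr2 and mt-Rnr1, took 10.1% of its counts. Of the 9 macrophage markers with a row, such as Cd68 and Csf1r, all 9 passed the filter on low counts, against 2 of 25 markers of other cell types, of which 8 had no count in any library. Each level below is a TMM-scaled RPKM, that is, counts divided by gene length and TMM-scaled library size; it measures a share of the RNA of a bulk sample, so fewer cells of a type and less RNA per cell cannot be told apart.

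Of the 83 genes 77 passed the filter, 36 of complex I, 4 of complex II, 9 of complex III, 11 of complex IV and 17 of complex V. The other 6 are forms known from other tissues or conditions. Over all 20 libraries Ndufa4l2, a hypoxia-inducible relative of Ndufa4, had 34 counts, the muscle form Cox6a2 had 58, the testis form Cox6b2 had 38 and the muscle form Cox8b had 10, while Cox7b2 and Cox8c had 0. Their ubiquitous counterparts were among the most abundant members: Cox6a1 had a median level over the 20 libraries of 254 and Cox8a one of 334. The highest median levels were those of the genes for the beta and alpha subunits of the F1 head, 382 for Atp5b (315 to 517) and 380 for Atp5a1 (319 to 473). At the low end of the tested members were Atp5sl at 5.27, Atp5s at 4.94, the muscle form Cox7a1 at 3.16 and Ndufb2 at 2.36. The 3 genes that encode the same c subunit of the ATP synthase ring differed in level, with medians of 140 for Atp5g3, 37.3 for Atp5g2 and 17.7 for Atp5g1. Most members varied little across groups. The ratio of the highest to the lowest group mean was 2.54 for Atp5s, 1.91 for Sdhd and 1.85 for Ndufv3, the 3 largest, and 1.09 for Ndufa13, the smallest.

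**Figure D1:**
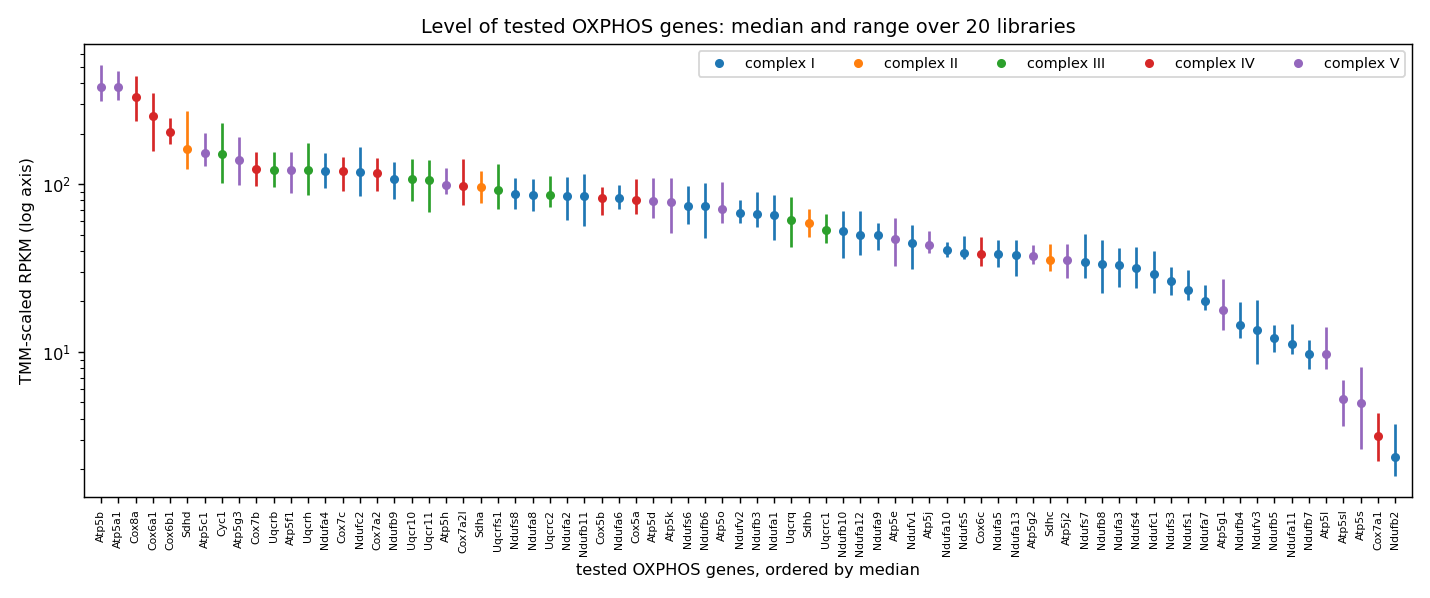
Level of the tested genes by complex, 1 gene left out, as TMM-scaled RPKM on a log axis, with the range and median over the 20 libraries. Atp5b and Atp5a1 lie highest, with medians of 382 and 380, and Ndufb2 lies lowest, with 2.36.

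By their median the oxidative phosphorylation genes were slightly higher at 24 than at 4 hours under each treatment. The median log2 difference of the 77 genes, 24 against 4 hours, was 0.24 with RANKL, 0.24 with I-BET and 0.23 with both, against 0.01, -0.01 and -0.05 over all 16042 genes tested. On log2 RPKM in limma these member medians were 0.22, 0.14 and 0.23, so that of the I-BET course depends on the method. At 24 hours the summed level of the genes was 6551 and 7697 with RANKL, against 4963 and 6470 at 4 hours with RANKL. With I-BET it was 5889 and 7543 at 24 hours, against 5211 and 5925 at 4 hours. With both agents it was 6604 and 7557 at 24 hours, against 5174 and 6543 at 4 hours. With RANKL and with both agents the 2 times did not overlap, whereas with I-BET the lower 24-hour library lay below the higher 4-hour library. Within libraries of the same number, 64, 66 and 61 of the 77 genes were higher at 24 hours in both pairs with RANKL, I-BET and both, against 37.5%, 36.4% and 33.3% of all genes tested.

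Few single genes passed the test at this number of libraries. In edgeR's quasi-likelihood test at adjusted p under 0.05, 9 members rose and 0 fell with RANKL, where 9.77% of all genes tested rose and 12.6% fell. With I-BET 3 rose and 0 fell, against 4.91% and 5.52% of all genes. With both agents 4 rose and 0 fell, against 6.75% and 8.35% of all genes. In this fit the shares of members that rose, 11.7%, 3.90% and 5.19%, lay near or below those of all genes. Other methods called more members over the courses of I-BET and both agents, again with 0 lower. DESeq2 called 10 and 10, where 8% and 8.92% of all genes with an adjusted p rose, and limma on log2 RPKM called 5 and 9, where 4.61% and 9.19% rose. With no filter on low counts edgeR called 6 and 11, where 2.76% and 3.58% rose, and with DESeq2's size factors it called 4 and 7, where 5.06% and 7.45% rose. With the library number as a block, 48, 38 and 43 members rose and 0 fell with RANKL, I-BET and both, where 21.6%, 15.9% and 17.9% of all genes rose and 21.1%, 14.7% and 18.2% fell. In that fit the shares of members that rose, 62.3%, 49.4% and 55.8%, lay above those of all genes in all 3 courses. When 1 library of a course was left out of that fit, the share of all genes that rose was lower in each case. Leaving out 1 library moved these counts: without the block, the 9 with RANKL became 1 without RANKL 24-hour library 2 and 1 without RANKL 4-hour library 1. The 3 with I-BET became 0 without I-BET 24-hour library 2 and 0 without I-BET 4-hour library 2, and 1 without I-BET 4-hour library 1, and the 4 with both became 0 without the 24-hour library 2 and 0 without the 4-hour library 1 of that treatment. The 4 with both became 2 without the 4-hour library 2 of that treatment, and the 3 with I-BET became 2 without I-BET 24-hour library 1. With the block, the 48 became 27 without RANKL 4-hour library 1, the 38 became 23 without I-BET 24-hour library 2 and 14 without I-BET 4-hour library 2, and the 43 became 26 without the 24-hour library 1 of both agents.

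**Figure D2:**
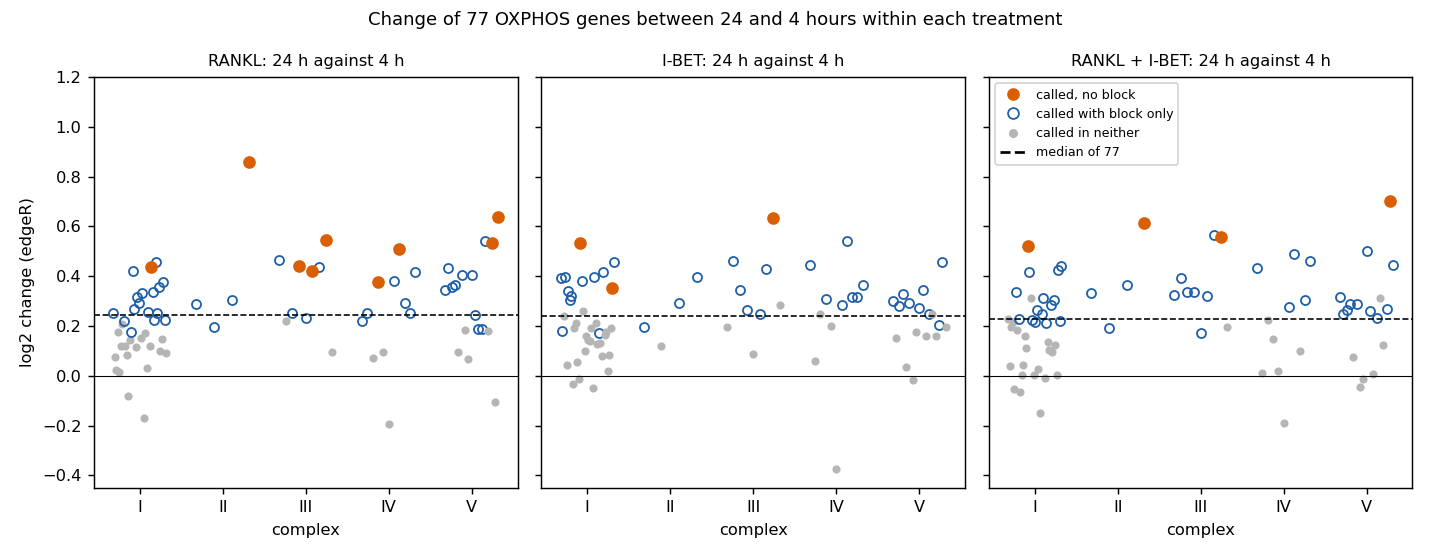
Log2 difference of each tested gene between 24 and 4 hours, by complex, under RANKL, I-BET and both agents, from the fit without the library number; filled orange points passed without the block, open blue ones only with it, and the dashed line is the median. Most points lie above 0 in all 5 complexes, and the medians of the 77 genes are 0.24, 0.24 and 0.23.

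Complex II is succinate dehydrogenase, and its membrane anchor gene Sdhd had the largest rise of any member over the RANKL course. Its level was 228 and 275 at 24 hours, against 122 and 154 at 4 hours. Both 24-hour libraries lay above both 4-hour libraries, a log2 difference of 0.86 ± 0.15 (SE, 2 libraries a group; edgeR adjusted p = 0.000964) and a fold of 1.82. It kept the call without any 1 of the libraries. With both agents Sdhd was at 194 and 217 at 24 hours, against 132 and 137 at 4 hours (0.61 ± 0.15, adjusted p = 0.0136). With I-BET alone it was at 155 and 191 at 24 hours, against 135 and 129 at 4 hours; the groups did not overlap, but the difference of 0.40 ± 0.15 did not pass without the block. The other members of the complex differed less over the RANKL course: the flavoprotein gene Sdha by 0.29 ± 0.13, the iron-sulphur gene Sdhb by 0.19 ± 0.20 and the second anchor gene Sdhc by 0.30 ± 0.14. None of these passed without the block, and all of them did with it. The call of Sdhd with both agents was lost without the 24-hour library 2, the 4-hour library 1 or the 4-hour library 2 of that treatment (adjusted p = 0.121, 0.0923 and 0.0603).

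In complex III, Uqcrh, the hinge protein beside cytochrome c1, passed in all 3 courses. With RANKL its level was 134 and 160 at 24 hours, against 85.8 and 115 at 4 hours (log2 difference 0.55 ± 0.18, edgeR adjusted p = 0.0384). With I-BET it was 144 and 175 at 24 hours, against 99.9 and 106 at 4 hours (0.63 ± 0.18, adjusted p = 0.0345). With both agents it was 152 and 171 at 24 hours, against 97.3 and 122 at 4 hours (0.56 ± 0.17, adjusted p = 0.0464). The 2 times did not overlap in any of these. Uqcrc2, a core protein, and Uqcrb, the subunit at the ubiquinone site, rose with RANKL, by 0.42 ± 0.10 and 0.44 ± 0.13. With the block 7, 6 and 8 of the 9 complex III members rose with RANKL, I-BET and both, where 21.6%, 15.9% and 17.9% of all genes did. Cyc1, the cytochrome c1 gene, and Uqcrfs1, the Rieske iron-sulphur gene, had differences of 0.47 ± 0.35 and 0.44 ± 0.22 with RANKL and did not pass without the block. The calls with RANKL were lost without RANKL 24-hour library 2 (edgeR adjusted p = 0.23 for Uqcrh, 0.102 for Uqcrc2 and 0.137 for Uqcrb) and without RANKL 4-hour library 1 (0.33, 0.111 and 0.259). Uqcrh was also lost with I-BET without the 24-hour library 2, the 4-hour library 1 or the 4-hour library 2 (0.248, 0.17 and 0.134), and with both agents without any 1 of the 4 libraries (0.051 to 0.302).

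In complex I, the accessory subunit gene Ndufb10 rose with I-BET and with both agents. With I-BET its level was 58.9 and 64.9 at 24 hours, against 40.1 and 45.3 at 4 hours (log2 difference 0.54 ± 0.15, edgeR adjusted p = 0.034). With both agents it was 59.3 and 68.9 at 24 hours, against 40.6 and 48.7 at 4 hours (0.52 ± 0.15, adjusted p = 0.0283). Groups stood apart in both courses. With RANKL it was 51.3 and 56.6 at 24 hours, against 36.2 and 44.5 at 4 hours, also apart but not past the test. Ndufs1, the largest subunit of the electron input module, rose with RANKL (27.9 and 30.6 at 24 hours, against 20.3 and 23 at 4 hours; 0.44 ± 0.12, adjusted p = 0.0141), and Ndufv2, an iron-sulphur subunit of that module, rose with I-BET (80.2 and 79.5 at 24 hours, against 66 and 59.1 at 4 hours; 0.35 ± 0.08, adjusted p = 0.00972). With the block 17, 13 and 15 of 36 rose with RANKL, I-BET and both, where 21.6%, 15.9% and 17.9% of all genes did. Ndufv1, which carries the flavin that takes electrons from NADH, differed by 0.37 ± 0.29 with RANKL and Ndufb8, an accessory subunit often used as a marker of the complex, by 0.17 ± 0.39; neither passed without the block. The call of Ndufb10 with I-BET was lost without any 1 of the 4 libraries (adjusted p = 0.0756 to 0.207), and with both agents without the 24-hour library 2 (0.231) or the 4-hour library 1 (0.223). Ndufs1 lost its call without RANKL 24-hour library 2 (0.112) or RANKL 4-hour library 1 (0.152), and Ndufv2 without I-BET 24-hour library 1 (0.0565), 24-hour library 2 (0.0586) or 4-hour library 2 (0.119).

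Complex IV held 2 calls over the RANKL course. Cox7a2l, a factor of respiratory supercomplexes, was at 101 and 129 at 24 hours, against 75.3 and 86.7 at 4 hours (log2 difference 0.51 ± 0.17, edgeR adjusted p = 0.0404). Its differences with I-BET and both agents were 0.54 ± 0.17 and 0.49 ± 0.16 and did not pass without the block. Cox6b1, named after its values were seen, rose by 0.38 ± 0.11. In the same complex Cox7a1 lay the other way: its level was 2.92 and 3.68 at 24 hours with RANKL, against 3.26 and 4.29 at 4 hours, and its difference of -0.19 ± 0.26 did not pass. Cox5b, a zinc-binding subunit, differed by 0.25 ± 0.17 with RANKL but by 0.06 ± 0.17 with I-BET and 0.01 ± 0.17 with both agents, none of them past the test without the block. The call of Cox7a2l was lost without RANKL 24-hour library 2, 4-hour library 1 or 4-hour library 2 (adjusted p = 0.31, 0.256 and 0.0723), and that of Cox6b1 without RANKL 24-hour library 1, 24-hour library 2 or 4-hour library 1 (0.0793, 0.108 and 0.269).

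In complex V, Atp5o, the stalk subunit that confers oligomycin sensitivity, rose with RANKL, with 86.8 and 102 at 24 hours, against 59.1 and 71.7 at 4 hours (log2 difference 0.53 ± 0.14, edgeR adjusted p = 0.0135). Its exons overlap a second gene of the same symbol and other transcripts, so its counts are uncertain; likewise 30.0% of Ndufa13 and 39.0% of Ndufb6 exonic bases are shared with other genes. Atp5sl rose with RANKL, with 6.2 and 6.84 at 24 hours, against 4.26 and 4.13 at 4 hours (0.64 ± 0.19, adjusted p = 0.0269). The F1 genes Atp5a1 and Atp5b differed by 0.35 ± 0.16 and 0.43 ± 0.17 with RANKL, with no call without the block and a call with it. Of the c-subunit genes Atp5g3 differed by 0.41 ± 0.30 with RANKL, 0.27 ± 0.30 with I-BET and 0.50 ± 0.30 with both, called only in the fit with the block. Atp5g1 and Atp5g2, between -0.05 and 0.18 in the 3 courses, were called in neither fit. Atp5s rose in the course of both agents, with 7.14 and 7.25 at 24 hours, against 4.12 and 4.74 at 4 hours (0.70 ± 0.16, adjusted p = 0.00786). The call of Atp5o was lost without RANKL 24-hour library 2 (0.129) or RANKL 4-hour library 1 (0.161), that of Atp5sl without any 1 of the 4 libraries (0.0529 to 0.134), and that of Atp5s without the 24-hour library 2 (0.0569) or the 4-hour library 1 (0.09) of both agents.

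With the block 27 of the 77 members rose in all 3 courses (35.1%, against 6.10% of all genes tested) and 20 in none (26.0%, against 66.6%). Those 27 are in each complex: Ndufa4, Ndufs1 and Ndufb10 are examples of complex I, Sdha, Sdhc and Sdhd are those of complex II, Uqcrfs1 and Uqcrh are examples of complex III, Cox5a, Cox7a2, Cox7a2l and Cox8a of complex IV, and Atp5a1 and Atp5g3 of complex V. The 20 include Ndufb8, Cox6a1, Cox7a1, Atp5g1 and Atp5g2.

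**Figure D3:**
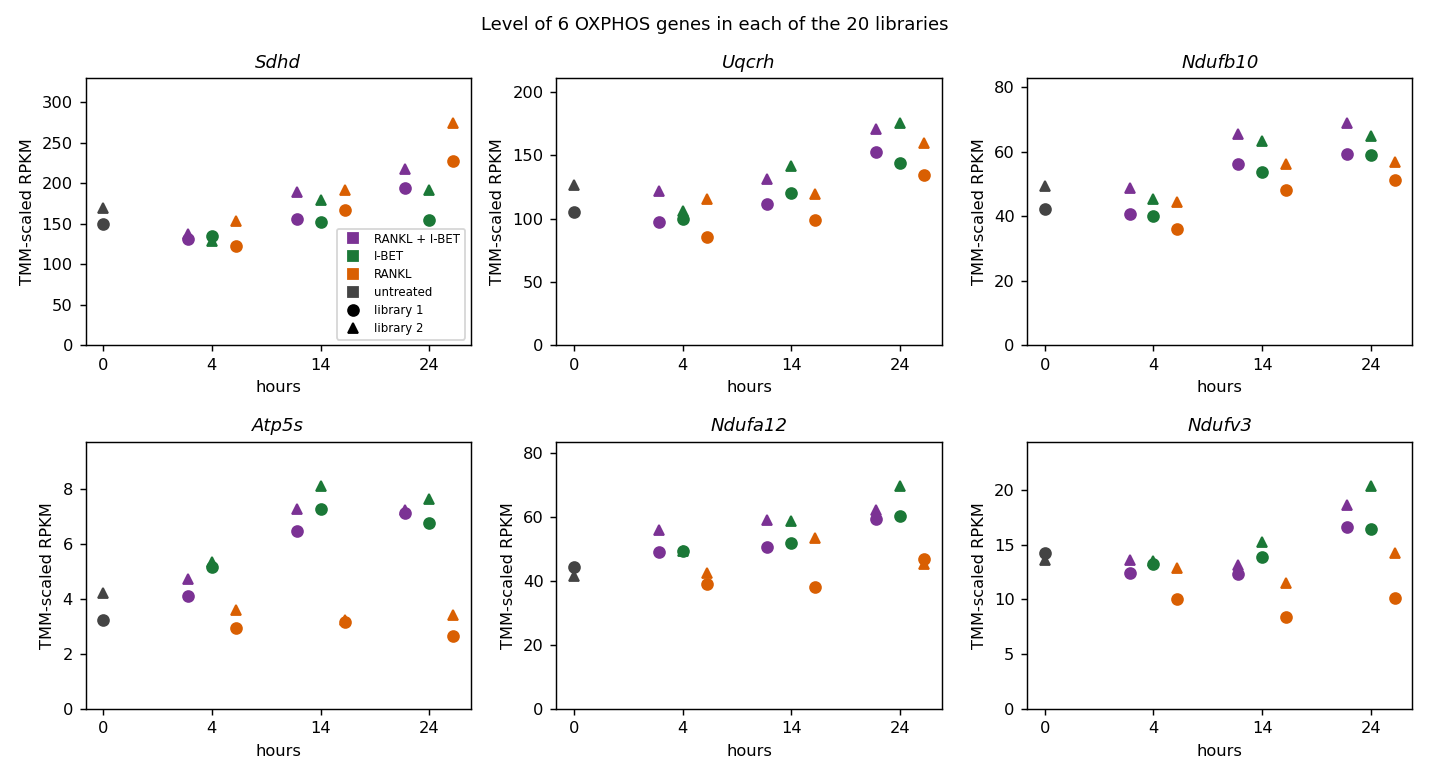
TMM-scaled RPKM of single genes in the libraries of each group, with 1 point a library, from untreated cells at 0 hours to 24 hours. Sdhd is highest with RANKL at 24 hours, at 228 and 275, and Atp5s is highest in groups with I-BET.

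The promoters of 4 genes on which the text turns are shown for comparison: Sdhd, Uqcrh, Ndufb10 and Atp5s (Dmac2l). Without the block Uqcrh was called in all 3 courses, Sdhd in those of RANKL and both agents, and Ndufb10 in those of I-BET and both agents. With the block Sdhd, Uqcrh and Ndufb10 each rose in all 3 courses. Atp5s rose with I-BET against untreated cells. Each runs from 250 bases before to 50 after the start in RefSeq GRCm38.p6, with motif letters in capitals; Sdhd is chr9:50603800-50604099 on the minus strand, Uqcrh chr4:116075021-116075320 on the minus strand, Ndufb10 chr17:24724374-24724673 on the minus strand and Atp5s chr12:69724695-69724994 on the plus strand.
Sdhd: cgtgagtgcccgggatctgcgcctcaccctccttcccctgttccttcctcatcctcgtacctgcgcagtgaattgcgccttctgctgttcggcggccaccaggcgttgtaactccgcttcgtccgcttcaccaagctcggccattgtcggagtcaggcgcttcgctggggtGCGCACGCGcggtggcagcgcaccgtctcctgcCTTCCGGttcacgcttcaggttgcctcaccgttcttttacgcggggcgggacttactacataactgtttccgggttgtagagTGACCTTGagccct
Uqcrh: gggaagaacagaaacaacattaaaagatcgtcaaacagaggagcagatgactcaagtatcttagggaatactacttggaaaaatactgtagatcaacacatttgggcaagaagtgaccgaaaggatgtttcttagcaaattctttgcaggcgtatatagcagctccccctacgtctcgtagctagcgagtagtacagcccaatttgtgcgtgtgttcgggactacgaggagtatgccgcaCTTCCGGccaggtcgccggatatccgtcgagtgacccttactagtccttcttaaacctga
Ndufb10: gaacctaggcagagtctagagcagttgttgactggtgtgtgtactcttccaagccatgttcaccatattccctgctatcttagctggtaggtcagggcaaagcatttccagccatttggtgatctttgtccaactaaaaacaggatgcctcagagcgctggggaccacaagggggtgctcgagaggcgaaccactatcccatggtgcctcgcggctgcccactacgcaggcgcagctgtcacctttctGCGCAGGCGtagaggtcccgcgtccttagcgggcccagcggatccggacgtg
Atp5s: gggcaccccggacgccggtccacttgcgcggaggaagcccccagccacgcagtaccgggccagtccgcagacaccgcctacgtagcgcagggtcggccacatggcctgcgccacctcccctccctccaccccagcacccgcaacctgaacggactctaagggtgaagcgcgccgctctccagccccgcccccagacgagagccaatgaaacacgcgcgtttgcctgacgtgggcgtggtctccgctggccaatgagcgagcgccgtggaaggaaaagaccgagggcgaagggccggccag
The letters searched on both strands were GCGCANGCG (NRF1), CCGGAAG (ETS factors such as GABPA), CACGTG (the E-box, bound by MYC), AANATGGCG (YY1) and CAAGGTCA (ERRA). NRF1 and GABPA are known regulators of nuclear genes for respiratory subunits. Of the 83 members 69 matched RefSeq, with 75 windows; GCGCANGCG was in 28% of these, against 6.25% of 32851 windows of all genes, and CCGGAAG in 21.3%, against 8.86%. AANATGGCG was in 16%, against 2.38%, CACGTG in 12%, against 7.15%, and CAAGGTCA in 5.33%, against 1.56%. Matched members that rose in all 3 courses with the block held GCGCANGCG in 8 of 22, and those that rose in none held it in 7 of 18. A match describes the letters and is neither a site nor a cause, and the lack of one in Atp5s says only that these letters are not in its window.

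Against untreated cells the median of the genes lay below that of all genes at 4 hours and above it at 24 hours, with RANKL and with I-BET. These comparisons share the untreated libraries. Counts without untreated library 2, here and below, rest on 1 untreated library. The shares of all genes printed beside them come from the fit with both untreated libraries. With RANKL at 4 hours the median log2 difference of the 77 genes was -0.07, against 0.01 over all genes. In both pairs of the same number 2 members were higher and 42 lower than untreated cells, against 35.7% and 33.4% of all genes tested. No member was called by edgeR or DESeq2 in either direction, 0 had an unadjusted p under 0.05, and limma on log2 RPKM called 0; 3.91% of all genes were called in either direction. With the block 5 fell, where 6.72% of all genes rose and 7.77% fell, and 1 was called when untreated library 2 was left out of that fit. These 5 were Atp5sl, Cox7a2l, Atp5o, Uqcrh and Sdha, with log2 differences of -0.36 to -0.18. At 14 hours with RANKL the member median was 0.03, the same as over all genes. No member was called by edgeR, 2 had an unadjusted p under 0.05, DESeq2 called 1 and limma 1, against 18.4% of all genes in edgeR. Without RANKL 14-hour library 2, edgeR called 1. With the block 5 rose and 4 fell, against 19.1% and 17.2% of all genes, and 3 were called without untreated library 2.

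At 24 hours with RANKL the median difference from untreated cells was 0.17, against 0.05 over all genes. Sdhd rose, with 228 and 275 at 24 hours, against 150 and 170 in untreated cells (log2 difference 0.65 ± 0.15, edgeR adjusted p = 0.00764), and Uqcrc2 rose, with 98.6 and 112, against 78.2 and 86 in untreated cells (0.36 ± 0.10, adjusted p = 0.0242). In both genes the groups did not overlap. These 2 were the calls, and 0 members fell, where 8.04% of all genes rose and 10.9% fell; the count was 0 without RANKL 24-hour library 2 or without untreated library 1, and 1 without untreated library 2. Sdhd had an adjusted p of 0.0861 and 0.0883 in the first and second of these, and Uqcrc2 of 0.204, 0.205 and 0.0654 in all 3. With the block 29 members rose and 0 fell, against 18.7% and 18.1% of all genes, and 15 were called without untreated library 2. The 29 include Cyc1 (0.41), Uqcrfs1 (0.39), Atp5b (0.36), Cox8a (0.34) and Ndufs1 (0.32). Over the same comparison the osteoclast markers, such as Acp5 and Mmp9, rose in 6 of 9 tested. Their summed level was 1253 to 1647 CPM at 24 hours, against 419 to 727 CPM in untreated cells. The osteoclast sums here and below depend heavily on Nfatc1, which reached 1352 CPM in a library, against 254 CPM for Acp5. Macrophage markers fell in 7 of 9, with sums of 2699 to 3278 CPM, against 8873 to 10261 CPM. The macrophage sums here and below depend heavily on Lyz2, which reached 5913 CPM in a library, and on Csf1r, which reached 2356 CPM. The 25 markers of other cell types summed to 0.545 to 0.580 CPM, against 0.995 to 1.35 CPM. The part that these shifts have in the members' values was not tested.

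With I-BET at 4 hours the member median was -0.13, against 0.01 over all genes; on log2 RPKM in limma it was 0.03, against 0.11 over all genes, so the sign depends on the scaling. No member was called by edgeR or DESeq2, 1 had an unadjusted p under 0.05 and limma called 1, where edgeR called 10.5% of all genes. With the block 1 rose, Atp5s (0.49), and 12 fell, among them Sdhd (-0.27) and Ndufs1 (-0.16), where 12.8% of all genes rose and 16.2% fell; without untreated library 2 the block called 8. At 14 hours 1 member rose, Atp5s, and 0 fell, against 5.29% and 8.37% of all genes; with the block 7 rose and 6 fell, against 14.4% and 15.4%, and 8 were called without untreated library 2. At 24 hours 3 rose and 0 fell, against 7.5% and 10.2%; with the block 22 rose and 2 fell, against 18.1% and 18.1%, and 11 were called without untreated library 2. The 3 without the block became 1 without I-BET 24-hour library 2 and 1 without untreated library 2.

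Atp5s had the largest differences of any member from untreated cells under I-BET at 4, 14 and 24 hours. Its level was 7.27 and 8.11 with I-BET at 14 hours, against 3.24 and 4.21 in untreated cells (log2 difference 1.03 ± 0.16, edgeR adjusted p = 0.000719). At 24 hours it was 6.77 and 7.63 with I-BET (0.94 ± 0.16, adjusted p = 0.00106). At 4 hours it was 5.15 and 5.34 with I-BET. All 6 libraries with I-BET alone lay above both untreated libraries. The calls at 14 and 24 hours held without any 1 of the libraries. Ndufa12, an accessory complex I subunit, rose at 24 hours, with 60.3 and 69.5 with I-BET, against 44.4 and 41.5 in untreated cells (0.60 ± 0.14, adjusted p = 0.00922), and Ndufv2 rose less, with 80.2 and 79.5, against 67.3 and 67 (0.25 ± 0.08, adjusted p = 0.0379). Ndufv2 did not pass with DESeq2's size factors in edgeR (0.0501) or without any 1 of the 4 libraries (0.129 to 0.152), and Ndufa12 lost its call without I-BET 24-hour library 2 (0.0938) or untreated library 2 (0.0769). In this comparison osteoclast markers rose in 1 and fell in 6 of 9, where 7.5% of all genes rose and 10.2% fell. Their sums were 119 to 147 CPM with I-BET, against 419 to 727 CPM in untreated cells. Macrophage markers fell in 4 of 9, with sums of 6752 to 6877 CPM, against 8873 to 10261 CPM. The part of these markers in the members' values was not tested.

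Both agents against RANKL alone asks what the inhibitor does in cells given RANKL, not whether the RANKL response itself changes. It shares the RANKL libraries with the comparisons of RANKL. At 4 hours no member was called by edgeR or DESeq2, 2 had an unadjusted p under 0.05 and limma called 1, against 11.4% of all genes in edgeR. With the block 3 rose, Atp5s, Ndufa12 and Sdha, and 0 fell, against 13.7% and 14.4%. At 14 hours Atp5s rose, with 6.46 and 7.26 with both agents, against 3.16 and 3.25 with RANKL alone (log2 difference 1.10 ± 0.16, edgeR adjusted p = 0.000243). It was the 1 call, with 0 lower, against 10.8% and 11.2% of all genes; 2 were called without the RANKL 14-hour library 2. With the block 8 rose and 7 fell, against 19.7% and 20.6%.

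At 24 hours the members' median difference, both agents against RANKL alone, was -0.01, against -0.05 over all genes, with -0.16 in complex V; on log2 RPKM in limma the median was 0.02, so its sign depends on the scaling. Atp5s was at 7.14 and 7.25 with both agents, against 2.64 and 3.41 with RANKL alone (log2 difference 1.25 ± 0.16, edgeR adjusted p = 6.05e-05, fold 2.38), and this held without any 1 of the libraries. Ndufv3, the small flavoprotein subunit, was at 16.7 and 18.6 with both agents, against 10.1 and 14.2 with RANKL alone (0.53 ± 0.18, adjusted p = 0.0407), and Ndufa12 at 59.5 and 62.2, against 46.9 and 45.3 (0.40 ± 0.14, adjusted p = 0.0499). None of the 3 overlapped between groups. These were the 3 calls, with 0 lower, where 13.9% of all genes rose and 12.9% fell; 1 was called without either library with both agents or without RANKL 24-hour library 1, and 2 without RANKL 24-hour library 2. Ndufa12 was lost without any 1 of the 4 libraries (adjusted p = 0.115 to 0.194), and Ndufv3 without the 24-hour library 1 (0.0774) or library 2 (0.21) of both agents or RANKL 24-hour library 1 (0.307). With the block 11 rose and 14 fell, against 23.1% and 23.5%. The 14 include Sdhd (-0.28), Atp5g1 (-0.27), Ndufs1 (-0.21) and Atp5b (-0.18), and the 11 include Cox6a1 (0.42), Cox5a (0.24) and Sdha (0.21). Osteoclast markers fell in 8 of 9, with sums of 119 to 159 CPM with both agents, against 1253 to 1647 CPM with RANKL alone, and macrophage markers rose in 4 and fell in 1 of 9, with sums of 4809 to 5523 CPM, against 2699 to 3278 CPM; their part in the members' values was not tested.

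**Figure D4:**
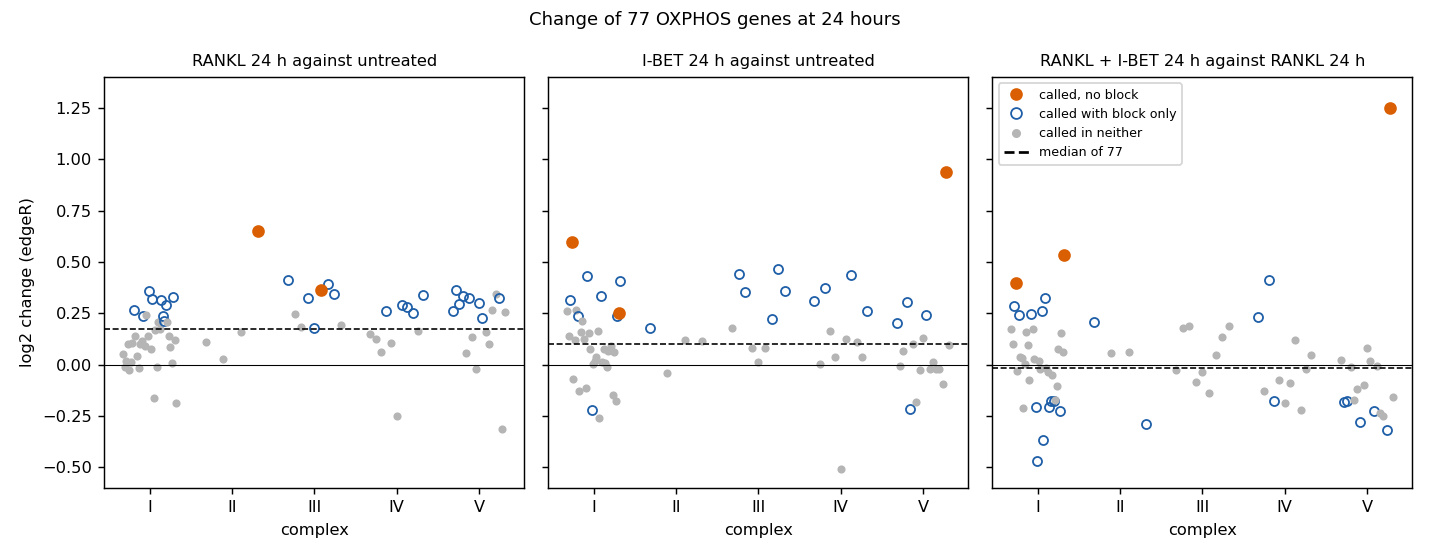
Log2 difference of each tested gene by complex at 24 hours, for RANKL and I-BET against untreated cells and for both agents against RANKL alone, from the fit without the library number, marked by call as orange (without the block), open blue (with it only) or grey. The members centre near 0 for both agents against RANKL alone at 24 hours, with a median of -0.01, and Atp5s stands at 1.25.

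Adding RANKL to I-BET moved no member past the test without the block. At 4, 14 and 24 hours 0 were called by edgeR and 0 had an unadjusted p under 0.05, against 0.517%, 0.904% and 0.262% of all genes called. DESeq2 and limma called 0 as well. With the block 0, 2 and 1 were called, against 3.07%, 6.58% and 2.95% of all genes: at 14 hours Atp5sl and Cox7a2l fell, by 0.37 and 0.25 on the log2 scale, and at 24 hours Atp5g3 rose by 0.27. The interaction sets the difference of both agents from I-BET alone against that of RANKL from untreated cells at 0 hours. Only the former is matched in time, so RANKL and time in culture cannot be told apart in it. It called 0 members at 4, 14 and 24 hours in edgeR, against 0%, 2.78% and 5.25% of all genes. The member medians were 0.15, -0.07 and -0.11 in edgeR, against 0.01, -0.04 and -0.02 over all genes. On log2 RPKM in limma they were 0.01, -0.09 and -0.15, against -0.08, -0.07 and -0.05. In edgeR 0, 0 and 1 members had an unadjusted p under 0.05, and DESeq2 and limma called 0. With the block the interaction called 0, 0 and 4, against 1.22%, 11.7% and 18.3%. The 4 at 24 hours were Sdhd (-0.40), Cox6b1 (-0.34), Uqcrh (-0.32) and Cox7a2l (-0.31); none was called without untreated library 2.

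**Figure D5:**
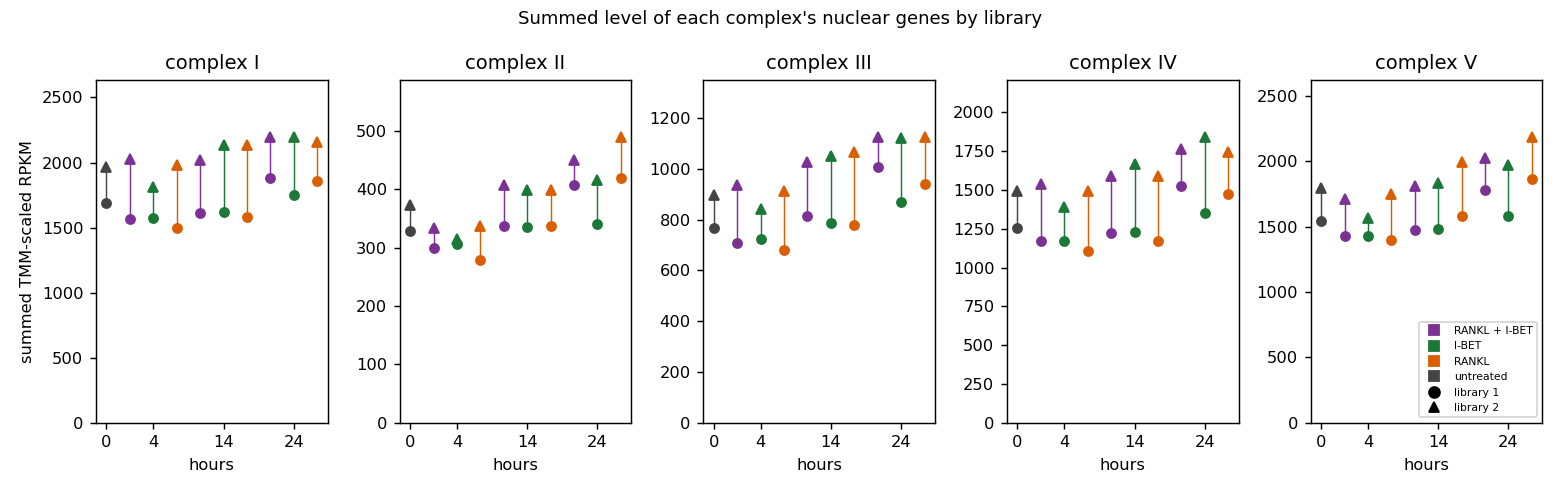
Summed TMM-scaled RPKM of the genes of each complex in each library, by group, with the library number marked. Library 2 lies above library 1 in every complex and group drawn, for example at 2186 against 1865 for complex V with RANKL at 24 hours.

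Neighbouring gene lists were compared over the same courses and, like the members, were chosen with earlier results of these data known. Beside their counts, 9.77%, 4.91% and 6.75% of all genes rose without the block with RANKL, I-BET and both agents, and 12.6%, 5.52% and 8.35% fell. Genes of the citric acid cycle and pyruvate dehydrogenase rose in 15 of 18 with RANKL, in 4 with I-BET and in 5 with both agents, at 24 against 4 hours, and none fell. Examples with RANKL are Pdha1, a pyruvate dehydrogenase subunit (log2 difference 0.65 ± 0.09, edgeR adjusted p = 0.0001), and Cs, citrate synthase (0.50 ± 0.08, adjusted p = 0.000408). The list's median with RANKL was 0.47, against 0.24 for the members and 0.01 over all genes. The 13 subunit genes of the mitochondrial DNA held 0 calls with RANKL and with I-BET, and with both agents mt-Nd5 fell by 0.70 ± 0.22 on the log2 scale (adjusted p = 0.0495). These RNAs come from poly(A)-selected libraries. Of 43 assembly factors of the complexes tested, 9 rose and 1 fell with RANKL, 1 rose and 0 fell with I-BET, and 2 rose and 0 fell with both agents. Among subunits the symbol rule misses, Ndufab1, the acyl carrier protein of complex I, rose with RANKL by 0.34 ± 0.08, and Higd2a, a complex IV factor, rose with I-BET by 0.97 ± 0.14 and with both agents by 0.76 ± 0.14. Ndufab1 lost its call without RANKL 24-hour library 2 (0.0853), 4-hour library 1 (0.073) or 4-hour library 2 (0.0594), and mt-Nd5 without any 1 of the 4 libraries of both agents (0.0869 to 0.273). Mitochondrial membrane and import genes rose in 9, 0 and 4 of 19 with RANKL, I-BET and both agents, at 24 against 4 hours.

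Of the regulators of these genes, only some are named here. Ppargc1b, the coactivator PGC-1beta, rose over the RANKL course, where 9.77% of all genes rose and 12.6% fell. Its level was 42.2 and 28.8 CPM at 24 hours, against 16.4 and 12.4 CPM at 4 hours (log2 difference 1.30 ± 0.17, edgeR adjusted p = 8.94e-05). At 24 hours it was lower with both agents, with 20.9 and 18.8 CPM, against 42.2 and 28.8 CPM with RANKL alone (-0.84 ± 0.17, adjusted p = 0.00197). The interaction at 24 hours, which uses the untreated cells at 0 hours and so includes time in culture, was -1.05 ± 0.24 (edgeR adjusted p = 0.0184). Nrf1, Yy1 and Esrra, whose letters were searched above, had interactions of -0.13 ± 0.14, -0.08 ± 0.20 and -0.07 ± 0.62. Gabpa and Myc, whose letters were also searched, had interactions of -0.28 ± 0.20 and -2.21 ± 0.84. None of these was called in either fit. Tfam and Tfb2m had interactions of -0.43 ± 0.20 and -0.45 ± 0.16. Both were called only with the block, which called 18.3% of all genes. Tfam, the mitochondrial transcription and packaging factor, rose over the RANKL course by 0.60 ± 0.14, Tfb2m, a mitochondrial transcription factor, by 0.46 ± 0.11, and Gabpa, an ETS factor whose letters are in the Sdhd and Uqcrh windows, by 0.42 ± 0.14. Myc, the E-box factor, was at 145 and 123 CPM with RANKL at 24 hours, against 17.7 and 8.32 CPM in untreated cells (3.39 ± 0.34, adjusted p = 7.89e-06), and at 0.508 and 0.241 CPM with both agents, against 145 and 123 CPM with RANKL alone (-8.49 ± 0.46, adjusted p = 4.98e-08). In that comparison of both agents with RANKL alone the members' median was -0.01. The part of Myc and of the other regulators in the members' values was not tested. Without 1 library, the interaction of Ppargc1b was lost without untreated library 2 (adjusted p = 0.0949), I-BET 24-hour library 1 (0.0748), RANKL 24-hour library 1 (0.0985) or the 24-hour library 2 of both agents (0.0824). Tfam was lost without RANKL 24-hour library 2 (0.0998) or RANKL 4-hour library 1 (0.124), Tfb2m without RANKL 4-hour library 2 (0.0873), and Gabpa without any 1 of the 4 libraries (0.117 to 0.207).

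Over the courses of RANKL, I-BET and both agents 9.77%, 4.91% and 6.75% of all genes rose without the block. In the same courses 12.6%, 5.52% and 8.35% of all genes fell. With RANKL the macrophage markers fell in 8 of 9 and the osteoclast markers rose in 4 of 9. With I-BET macrophage markers rose in 1 and fell in 2, and osteoclast markers rose in 1 and fell in 4. With both agents macrophage markers rose in 1 and fell in 4, and osteoclast markers rose in 0 and fell in 5. At 24 hours osteoclast markers summed to 1253 to 1647 CPM with RANKL, against 964 to 1495 CPM at 4 hours. They summed to 119 to 147 CPM with I-BET, against 192 to 319 CPM, and to 119 to 159 CPM with both agents, against 289 to 494 CPM. As these sums depend heavily on Nfatc1, they do not show the course of the other osteoclast markers. The macrophage sums likewise depend heavily on Lyz2 and Csf1r and do not show the course of the others. Macrophage markers summed at 24 hours to 2699 to 3278 CPM with RANKL, against 7811 to 10585 CPM at 4 hours, to 6752 to 6877 CPM with I-BET, against 7073 to 8094 CPM, and to 4809 to 5523 CPM with both agents, against 7139 to 9952 CPM. The member medians beside these marker values were 0.24, 0.24 and 0.23 in edgeR and 0.22, 0.14 and 0.23 on log2 RPKM in limma; the part of the markers in them was not tested.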

How the data were processed

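For 20 libraries the authors deposited raw gene counts and RPKM, made from poly(A)-selected RNA; per the submitters' processing notes, reads were checked with FastQC, aligned with STAR 2.5.3a to GRCm38 (mm10), and groups compared with DESeq2 1.16.1. No source used here names the counting tool or the strand setting. The deposited RPKM equal counts over gene length and library total for 379534 of 379534 values above 0 (tolerance 0.001 of the value), so they add no independent data. Totals of 19051780 to 62313792 counts set the precision.

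The tests used edgeR 4.0.16 (R 4.3.3) on the counts. Low genes were dropped by filterByExpr, which left 16042, and TMM factors scaled the libraries. Each of the 10 groups had its mean in a single robust quasi-likelihood fit, and 18 comparisons were tested by F tests with Benjamini-Hochberg adjustment across the tested genes; adjusted p under 0.05 was a call. SE is the log2 difference over the square root of F. Alternatives were the library number as a block, DESeq2's size factors in edgeR, no filter, DESeq2 1.42.0, limma 3.58.1 on log2(RPKM + 1), and leaving out libraries. Libraries of the same number deviated together in 45 of 45 pairs of groups (correlation 0.221 to 0.596, median 0.454), so the numbers, which come from the labels, were taken to pair the samples.

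Genes named are a set of fixed members in any comparison, the up to 6 largest rises and falls among called members with a mean of at least 5 CPM, the members that failed the filter, and list genes that lead or regulate. The members and lists were chosen with earlier results of these data known. The values of 1 member are not reported here, though it is in the counts. The edgeR computation was tested on simulated data; 1 simulated set missed the limit first set for the size of small changes, after which the same limit was applied to the mean over several sets. Tables and figures used Python 3.11.15, pandas 2.3.3 and matplotlib 3.10.9.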

Additional observations from a re-analysis of the deposited data

How the results depend on the processing

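The fit with the library number as a block moved most counts of called members: to 5, 9 and 29 for RANKL at 4, 14 and 24 hours against untreated cells, to 13, 13 and 24 for I-BET at the same times, to 3, 15 and 25 for both agents against RANKL alone, to 2 and 1 for both agents against I-BET alone at 14 and 24 hours, to 48, 38 and 43 for 24 against 4 hours with RANKL, I-BET and both agents, and to 4 for the interaction at 24 hours. With the block and without untreated library 2 the counts against untreated cells were 1, 3 and 15 for RANKL and 8, 8 and 11 for I-BET. No share of all genes stands beside the counts without untreated library 2, which rest on 1 untreated library. They are therefore not a result about the members. The cause was not tested. The biological coefficient of variation was 0.0751 with the block, against 0.162 without it, and no call of the fit without the block was lost with it.

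With no filter on low counts the counts were 1 and 1 for RANKL at 14 and 24 hours and 6 for I-BET at 24 hours against untreated cells, 2 for both agents against RANKL alone at 14 hours, and 6 and 11 over the courses of I-BET and both agents. With limma on log2 RPKM they were 1 and 8 for RANKL at 14 and 24 hours, 1, 4 and 10 for I-BET at 4, 14 and 24 hours, 1 and 2 for both agents against RANKL alone at 4 and 14 hours, and 5 and 9 over the courses of I-BET and both agents. DESeq2 gave 1 for RANKL at 14 hours and 10 and 10 over those courses, and DESeq2's size factors in edgeR gave 7 over the course of both agents. Shares of all genes under these settings are given above only for the courses of I-BET and both agents. For the other comparisons these counts show only that calls depend on the method. The cause was not tested.

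Leaving out 1 library gave 1 to 10 calls over the RANKL course, 0 to 2 over the I-BET course and 0 to 3 over that of both agents, and with the block, an alternative chosen after seeing the data, 27 to 43, 14 to 42 and 26 to 45; without I-BET 24-hour library 2 the second was 23. Against untreated cells it gave 0 to 1 and 0 to 2 for RANKL at 14 and 24 hours and 1 to 2 for I-BET at 24 hours, and for both agents against RANKL alone 1 to 2 at 14 and 1 to 2 at 24 hours. Of the 26 calls without the block, 21 were lost when some library was left out; the 5 that held were Sdhd over the RANKL course and Atp5s with I-BET at 14 and 24 hours against untreated cells and with both agents against RANKL alone at 14 and 24 hours. The sign changed for 26 log2 values, all of members not called without the block and all when 1 library was left out. These fits had no block, so leaving out 1 library left the library numbers unequal between the groups. The members' share of the counts was higher in library 2 in 10 of 10 groups. Its part in the sign changes was not tested. The ranges were as follows. For RANKL at 14 hours against untreated cells Ndufb11 lay between -0.62 and 0.027, Ndufs7 between -0.027 and 0.59, Uqcrfs1 between -0.0063 and 0.38 and Atp5d between -0.0082 and 0.57. For RANKL at 24 hours against untreated cells Ndufb6 lay between -0.014 and 0.66. For I-BET at 14 hours against untreated cells Ndufv1 lay between -0.082 and 0.51. For I-BET at 24 hours against untreated cells Ndufv1 lay between -0.040 and 0.50, Uqcrfs1 between -0.041 and 0.45, Cox6a1 between -0.11 and 0.74, Cox8a between -0.078 and 0.54 and Atp5e between -0.64 and 0.12. For both agents against RANKL alone at 14 hours Atp5b lay between -0.35 and 0.0025 and Atp5e between -0.58 and 0.17. For both agents against I-BET alone at 24 hours Atp5g3 lay between -0.0069 and 0.57. Over the RANKL course Ndufa4 lay between -0.038 and 0.52, Ndufb11 between -0.045 and 0.65, Ndufb6 between -0.038 and 0.81, Ndufc1 between -0.044 and 0.51, Uqcr11 between -0.074 and 0.65 and Atp5j2 between -0.068 and 0.49. Over the I-BET course Atp5g3 lay between -0.038 and 0.54 and Atp5j2 between -0.0046 and 0.47. Over the course of both agents Ndufb6 lay between -0.038 and 0.66. With 2 libraries a group, differences near the medians of 0.24 seldom passed without the block. With the block, the share of all genes that rose over each course was also lower whenever 1 of its libraries was left out.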
